A study of Triticum aestivum with 16 samples.

Results

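A set of 18 wheat genes was at least 8 times higher in cold-treated axillary buds of the cultivar AiKang58 (AK58) than in its leaf, root and shoot apex. In the wild type (WT) of the cultivar Zhengmai7698 (ZM7698) these genes were almost unread. They were chosen from 107891 wheat gene identifiers by measured values. Both AK58 bud values had to be 100 normalised reads or more, where normalised reads are whole reads scaled by 1 factor per library. The lower bud value had to be at least 8 times the highest of the 6 leaf, root and apex values. All 4 WT libraries had to stand at 0.1 TPM or less, where TPM is a relative abundance corrected for gene length and depth. Chromosomes 1B and 5B and 1 identifier on 5A were left out, which left 97600 identifiers, of which 203 met the AK58 conditions and 18 also met the WT condition. The levels in AK58 and in WT that made this choice are therefore given as a description and were not tested.

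The study holds 16 RNA-seq libraries of bread wheat in 8 groups of 2. AK58 leaf, root and shoot apex came from seedlings of 2 weeks. AK58 axillary buds of 1.0 to 2.0 cm came from plants of 6 weeks that had been kept at 4 °C for 30 days. From ZM7698, apices and buds of the same size came from plants of 2 weeks with no cold treatment in the labels, in WT and in M6, a hexa-mutant with all A, B and D copies of TaSPL7 and TaSPL15 mutated. All plants grew in 16 h of light at 22 °C and 8 h of dark at 19 °C, per the labels, and the cold was given in the same light cycle. AK58 bud against WT bud thus differs in cultivar, age and cold at once, and AK58 bud against the other AK58 tissues in tissue, age and cold at once, so these cannot be told apart. The labels do not say whether the replicates are separate plants, so a p-value covers the spread of these libraries alone, which may be technical.

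Axillary buds form in the axils of leaves and grow into tillers, the side shoots of a grass. In winter cereals a long period of cold, called vernalization, makes the plant competent to flower. VRN1, a MADS-box transcription factor gene, is the best known gene of this response in wheat: cold raises it, and it promotes the change of the shoot meristem from making leaves to making flowers. Cold also raises many genes of cold acclimation, whose products protect membranes and proteins.

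The 8 AK58 libraries corresponded to 51497044 to 79585209 reads and the 8 ZM7698 libraries have an unknown depth, since TPM keeps none. The pair of root libraries was the least alike, with a correlation across genes of 0.770 on the log2 scale, against 0.965 to 0.980 in the other AK58 tissues. Among AK58 values of 1 to 20 reads, 63.8% to 70.4% were even numbers in 7 libraries and 44.8% in bud replicate 2, and the part of this in the results was not tested. TB1, whose product represses bud outgrowth, was used to check the tissue labels, by its published identifiers. Its 3 copies had 0 reads in every AK58 leaf and root library and between 15.9 and 67.0 normalised reads in every apex and bud library. In AK58 the mean of each copy was lower in bud than in apex, at 19.8 against 52.3 for the 4A copy, 25.9 against 33.7 for the 4B copy and 23.1 against 41.7 for the 4D copy, and the 2 tissues overlapped for the 4B copy. In ZM7698 each copy was higher in both buds than in both apices of the same genotype. Markers of other cell types were not examined, because neither the files nor the reference pair names with these identifiers.

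In the AK58 buds the 18 genes spanned 2 orders of abundance. The lower bud value ran from 107.6 to 22991 normalised reads, with a median of 578, against a median of 703 in the 185 bud-high genes that were above 0.1 TPM in at least 1 WT library. Of the 18, 8 stood at 1000 or more and 6 at 5000 or more. Together they gave 0.152% and 0.138% of all normalised reads in the bud libraries, and at most 0.000883% in any other AK58 library. In a bulk sample, more cells that make a transcript and more of it per cell cannot be told apart.

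**Figure D1:**
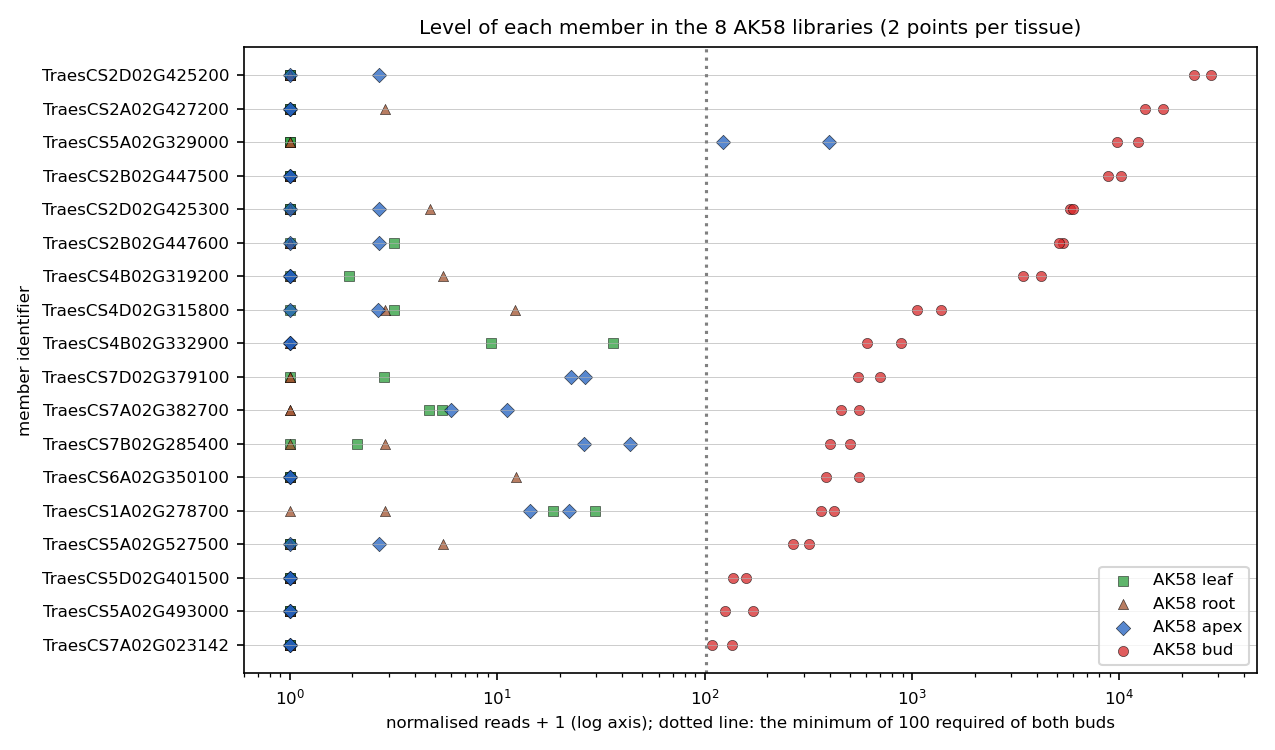
Level of each of the 18 genes in the 8 AK58 libraries, as normalised reads + 1 on a log axis, with 2 points per tissue. Both bud points lie right of the dotted line at the required minimum for every gene, and TraesCS5A02G329000 is the gene with apex points above it, at 122 and 395 normalised reads.

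Chromosomes of homoeologous group 2 carried 5 of the 18 genes, and these were 5 of the 6 most abundant. By count, group 2 carried 27.8% of the 18, against 18.9% of the 185 other bud-high genes and 18.2% of all 97600 identifiers. Homoeologous groups are the sets of matching A, B and D chromosomes of hexaploid wheat. The group 2 genes gave 74.5% and 76.1% of the summed level of the 18 in the bud libraries. TraesCS2D02G425200 stood at 27598 and 22991 normalised reads in the buds, a mean of 25294 ± 3258 (SD, n = 2), and was 125th of all identifiers in mean bud level. Its only reads outside the bud in AK58 were 2 in apex replicate 2, or 1.70 normalised reads.

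TraesCS2A02G427200 stood at 16123 and 13262 normalised reads in the buds, with 1.88 in root replicate 2 and 0 in the other leaf, root and apex libraries. TraesCS2B02G447500 stood at 10192 and 8812 in the buds and had 0 reads in all 6 other libraries, so its lower bud value was at least 2676-fold above a floor of 3 reads per library. These levels put an A, a B and a D identifier of group 2 among the 4 most abundant of the 18. Whether they are copies of 1 ancestral gene is not given in the files or the reference.

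The remaining group 2 genes lay beside these in identifier order, which follows the chromosome. TraesCS2D02G425300, next to TraesCS2D02G425200, stood at 5788 and 5943 normalised reads in the buds, with 3.76 in root replicate 2, 1.70 in apex replicate 2 and 0 in the other 4 libraries. TraesCS2B02G447600, next to TraesCS2B02G447500, stood at 5348 and 5116 in the buds, with 2.20 in leaf replicate 1, 1.70 in apex replicate 2 and 0 elsewhere in AK58. In both pairs the gene with the higher identifier number was the lower of the pair in both bud libraries. Normalised reads are not corrected for length, so this is an order of reads and not of transcripts per gene, and reads of near-identical neighbours can be shared between them by the counting.

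Group 4 carried 3 of the genes. TraesCS4B02G319200 stood at 4198 and 3443 normalised reads in the buds, and its highest other value was 4.49, in root replicate 1. TraesCS4D02G315800 stood at 1385 and 1059, and its highest other value was 11.2, also in root replicate 1, with at most 2.20 in the other 5 libraries. The third, TraesCS4B02G332900, stood at 879 and 607 in the buds and was the gene with a clear leaf level and none in root and apex: 35.1 and 8.33 in the leaf libraries, and 0 reads in all 4 root and apex libraries.

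Group 7 carried 4 genes, 3 of which were read at a low level in both apex libraries. TraesCS7D02G379100 stood at 698 and 550 normalised reads in the buds and at 21.7 and 25.5 in the apices. TraesCS7A02G382700 stood at 553 and 454 in the buds and at 5.01 and 10.2 in the apices. TraesCS7B02G285400 stood at 504 and 402 in the buds and at 25.1 and 42.4 in the apices. These A, B and D identifiers lay within 402 to 698 normalised reads in the bud and had no more than 1.88 in root, and the A identifier also had 4.39 and 3.70 in leaf. The fourth, TraesCS7A02G023142, stood at 134 and 107.6 in the buds and had 0 reads in the other 6 AK58 libraries.

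Group 5 carried 4 genes of very different levels. TraesCS5A02G329000 was the third most abundant of the 18, at 12283 and 9752 normalised reads in the buds. It was also the gene with the highest level outside the bud, at 122 and 395 in the apices, with 0 reads in leaf and root. TraesCS5A02G527500 stood at 318 and 265 in the buds, with 4.49 in root replicate 1, 1.70 in apex replicate 2 and 0 elsewhere in AK58. TraesCS5A02G493000 stood at 170.1 and 124 in the buds, with 0 reads in the other 6 libraries.

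TraesCS5D02G401500 is the published identifier of VRN1-5D, the D copy of VRN1; neither the files nor the reference pair the name with it. It stood at 157 and 136 normalised reads in the buds and had 0 reads in the other 6 AK58 libraries, at least 41.2-fold above the floor of 3 reads per library. It was listed at 0 in all 8 ZM7698 libraries. By level it was among the lowest of the 18, the group of 3 genes with bud means between 121 and 147.

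The last 2 genes were alone in their groups. TraesCS6A02G350100 stood at 555 and 385 normalised reads in the buds, with 11.3 in root replicate 2 and 0 reads in the other 5 libraries. TraesCS1A02G278700 stood at 417 and 363 in the buds and was the most widely read of the 18 outside the bud, in 5 of 6 libraries, at 28.5 and 17.6 in leaf, 13.4 and 21.2 in apex and 1.88 in root replicate 2. No member lay on group 3, which carried 22 of the 185 other bud-high genes and 16.9% of all 97600 identifiers. The A subgenome carried 8 of the 18, and the B and D subgenomes 5 each, against 65, 52 and 62 of the 185; these shares were not tested.

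Outside the bud, 10 of the 18 genes stayed under 5 normalised reads in every AK58 library, and 4 had 0 reads in all 6. Of the 185 other bud-high genes, 9 stayed under 5 (4.86%) and 2 had 0 reads in all 6 (1.08%). The WT condition chose between these sets, and the difference was not tested. Among the 18, the highest other value lay in root for 6, in apex for 5 and in leaf for 3. In 5 of those 6 root cases it rested on 2 to 12 reads, and in TraesCS4D02G315800 on 15.

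**Figure D2:**
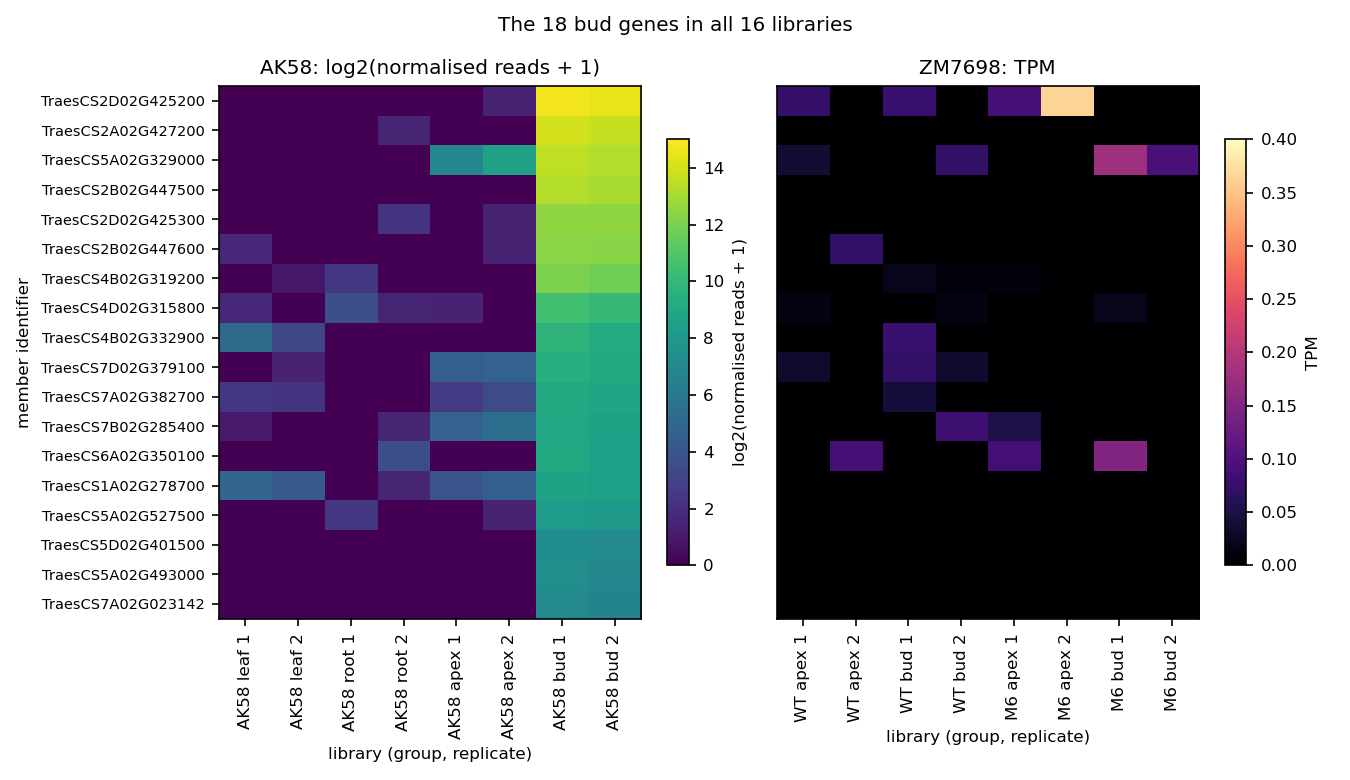
The 18 genes in all 16 libraries, with AK58 as log2 of normalised reads + 1 on the left and ZM7698 as TPM on the right, ordered by the lower bud value. The AK58 bud columns are high in every row, and on the right no cell passes 0.364 TPM.

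The bud replicates differed in level in a common direction. Replicate 1 was above replicate 2 for 17 of the 18 genes, with a median ratio of 1.22, and TraesCS2D02G425300 was the exception at 0.974. Of the 185 other bud-high genes replicate 1 was above replicate 2 in 94, with a median ratio of 1.01, and of all 35206 genes with both bud values at 100 or more in 57.9%. The ratios farthest from 1 among the 18 were 1.45 for TraesCS4B02G332900, 1.44 for TraesCS6A02G350100 and 1.37 for TraesCS5A02G493000. Replicate 2 is also the library with the lower share of even read numbers, and the part of this in the ratio was not tested.

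The leaf, root and apex values of the 18 genes took part in their choice, since the rule compares the bud with the highest of them, so differences among these tissues are a description too. All 18 genes passed the filter of 10 normalised reads in at least 2 libraries through the bud, and 8 of the 18 passed it once either bud library was left out. TraesCS5A02G329000, TraesCS7D02G379100, TraesCS7B02G285400 and TraesCS1A02G278700 also passed it by their leaf or apex values alone. A call across all identifiers needed an adjusted p under 0.05 (limma, Benjamini-Hochberg over 69525 identifiers) and a change of at least 2-fold on log2 of the value + 1. In leaf against apex such calls counted 1 of the 18 higher and 3 lower, where 20.3% of all tested identifiers were called higher and 20.1% lower. In root against apex they counted 0 higher and 5 lower, where 20.1% were called higher and 14% lower. The members at an unadjusted p under 0.05 in root were the 5 counted lower. The edgeR test gave the same counts of the 18, with backgrounds of 18.4% higher and 16.5% lower in leaf and 18.8% higher and 10.5% lower in root. Without apex replicate 2, limma counted 0 higher in leaf and 2 lower in root, and without root replicate 1 or 2 it counted 1 or 2 higher in root. Nothing is read from these counts, and no p-value is given for a member in these contrasts.

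In TraesCS5A02G329000, TraesCS7D02G379100 and TraesCS7B02G285400 both apex values lay above every leaf and root value. TraesCS7A02G382700 also had both apex values above every leaf value, by a small margin, at 5.01 and 10.2 against 4.39 and 3.70 normalised reads, and 0 reads in root. In TraesCS1A02G278700 the leaf and apex values overlapped and root was lower, and in TraesCS4B02G332900 the leaf alone of these 3 tissues was above 0.

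In ZM7698 WT, the 18 genes were at 0 or close to it by the rule. Of the 18, 8 were listed at 0 in all 4 WT libraries, and the same count held over all 8 ZM7698 libraries. The highest WT value was 0.0894 TPM, for TraesCS6A02G350100 in apex replicate 2. For TraesCS2D02G425200, the most abundant in AK58 bud, the WT apex libraries had 0.0740 and 0 TPM and the WT bud libraries 0.0783 and 0 TPM.

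M6 was not used by the rule, and it comes from the same cultivar, age and growth conditions as WT. No member reached 0.5 TPM in any of the 4 M6 libraries, and 12 of the 18 (66.7%) were at 0 in all 4, against 74.0% of the 35664 identifiers at 0.1 TPM or less in all 4 WT libraries. Of these 35664 identifiers, 78 (0.219%) reached 1 TPM in an M6 library and 201 (0.564%) reached 0.5 TPM, so 0 of 18 lies near that background. A level of 0.1 TPM or more was reached by 3 of the 18 (16.7%), against 6.54% of the 35664 identifiers and 27 of the 165 (16.4%) that also had both AK58 bud values at 100 or more, so the 18 lie at the share of the latter. TraesCS2D02G425200 stood at 0.0894 and 0.364 TPM in the M6 apices and at 0 in the M6 buds. TraesCS5A02G329000 stood at 0.178 and 0.0953 TPM in the M6 buds and at 0 in the M6 apices, and TraesCS6A02G350100 at 0.152 and 0 TPM in the M6 buds and 0.0876 and 0 in the M6 apices. The other 3 members read in M6 were each above 0 in 1 library: TraesCS7B02G285400 at 0.0507 TPM in apex replicate 1, TraesCS4D02G315800 at 0.0193 TPM in bud replicate 1 and TraesCS4B02G319200 at 0.0109 TPM in apex replicate 1.

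The bud of M6 was compared with its apex across 50878 identifiers at 1 TPM or more in at least 2 ZM7698 libraries, of which limma called 17 (0.0334%) higher and 28 (0.055%) lower. None of the 18 genes passed this filter, so none was tested. The M6 bud replicates were the least alike in ZM7698, with a correlation of 0.947 on the log2 scale, against 0.971 to 0.982 in the other groups. The number of calls over all identifiers rose strongly when M6 bud replicate 2 was left out. The small number of calls thus depends on that library and is no measure of how alike M6 bud and apex are. With every identifier above 0 in any ZM7698 library kept, 10 of the 18 entered and limma called 0, with 2 at an unadjusted p under 0.05 and a smallest adjusted p of 0.312. Over all 83276 identifiers of that fit limma called 3, and 8696 had an unadjusted p under 0.05. The highest M6 value of any member was 0.364 TPM, too low for a 2-fold change on log2 of the value + 1. No member could therefore be called, and the fit cannot decide whether the members differ between M6 bud and apex.

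**Figure D3:**
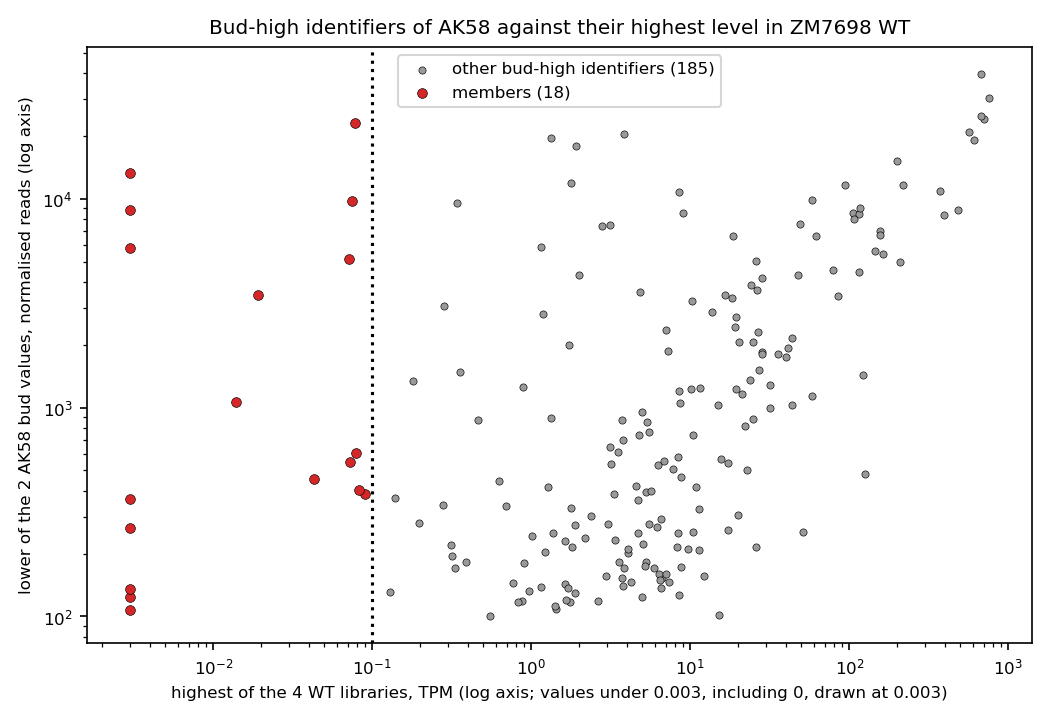
The 203 bud-high identifiers of AK58 by their highest WT level in TPM (horizontal, log axis, values under 0.003 drawn at 0.003) and their lower AK58 bud value in normalised reads (vertical, log axis). The 18 members lie left of the dotted line at 0.1 TPM, over the whole range of bud levels, and the 185 others spread from 0.129 to 756 TPM.

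The WT condition separated a small part of the bud-high genes. The highest WT level of the 185 others had a median of 6.99 TPM, against 0.0165 TPM in the 18. Just outside the limit stood TraesCS5A02G533900 at 0.129 TPM and TraesCS5A02G348200 at 0.140 TPM, and just inside it TraesCS6A02G350100 at 0.0894 TPM and TraesCS7B02G285400 at 0.0825 TPM. At the bud minimum, TraesCS7A02G023142 and TraesCS5A02G493000 were just inside with lower values of 107.6 and 124, and TraesCS2B02G503000 and TraesCS4B02G353300 just outside with 97.0 and 82.2. At the ratio, TraesCS7B02G285400 and TraesCS1A02G278700 were just inside with 9.47 and 12.7 times, and TraesCS7A02G119200 and TraesCS6A02G350200 just outside with 5.94 and 5.46 times.

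The same conditions were applied to each AK58 tissue to see how often a gene of AK58 was at 0.1 TPM or less in all 4 WT libraries. Among genes with both apex values at 100 or more, 197 of 35728 (0.551%) were, and among genes with both bud values at 100 or more, 165 of 35206 (0.469%). Of those 165 genes, 114 were higher in another AK58 library than in the lower bud library, 33 lay between 1 and 8 times, and 18 are the genes described here. Among genes at least 8 times above every other tissue, the share was 20 of 352 (5.68%) for the apex and 18 of 203 (8.87%) for the bud. The apex was sampled at 2 weeks without cold in both cultivars. For leaf and root, which have no ZM7698 library here, the shares were 147 of 312 (47.1%) and 628 of 1312 (47.9%). These shares were not tested.

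**Figure D4:**
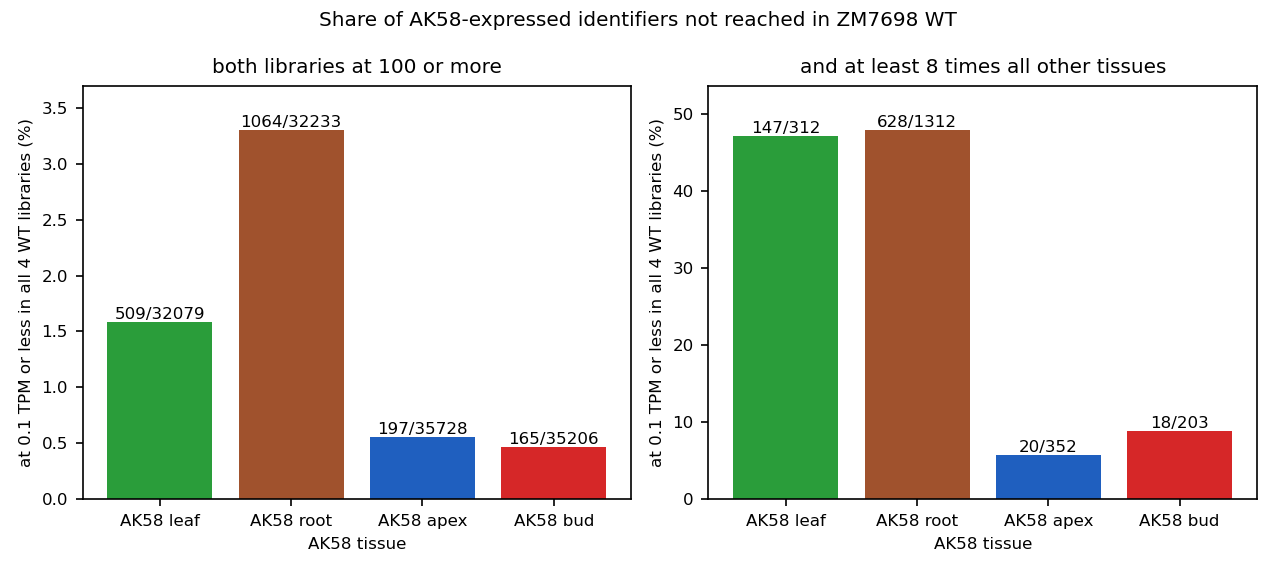
Share of AK58 identifiers at 0.1 TPM or less in all 4 WT libraries, in percent, for identifiers with both libraries of a tissue at 100 or more (left) and for those also at least 8 times above every other tissue (right). Numbers over the bars give the counts; apex and bud lie at 5.68% and 8.87% on the right, and leaf and root at 47.1% and 47.9%.

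In identifier order, 6 of the 18 genes had a bud-high gene directly beside them (33.3%), against 30 of the 185 others (16.2%). The 4 members in the pairs on 2B and 2D account for 4 of these, and the other 2 had a neighbour that failed only the WT limit; the neighbours named here were chosen after their values were seen. TraesCS2A02G427100, beside TraesCS2A02G427200, stood at 24036 and 19588 normalised reads in the buds and at most 43.3 elsewhere in AK58, with 0.757 to 1.33 TPM in the WT libraries. TraesCS5A02G329100, beside TraesCS5A02G329000, stood at 12989 and 9562 in the buds and at 76.0 and 219.0 in the apices, with 0.207 to 0.341 TPM in WT. Both neighbours were thus bud-high and low, but not absent, in WT.

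Near TraesCS6A02G350100, TraesCS6A02G350300 stood at 5877 and 6363 normalised reads in the buds and reached 341 in leaf, with 0.0248 to 1.15 TPM in WT. TraesCS6A02G350200, which lies between them, stood at 168 and 205 in the buds and reached 30.7 in leaf. Its highest WT value was 0.0645 TPM, and it failed only the ratio. Of the 32 other identifiers directly beside the 18 genes, 2 were bud-high (6.25%), against 0.208% of all 97600, and 22 were above 0.1 TPM in at least 1 WT library. The same share was not counted for the neighbours of the 185 others, 30 of which also had a bud-high gene beside them. The 6.25% is therefore not shown to be particular to the 18. No 3 members lay in a row within 1000 of each other in identifier number. Near-identical neighbours can share reads, and this was not tested.

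**Figure D5:**
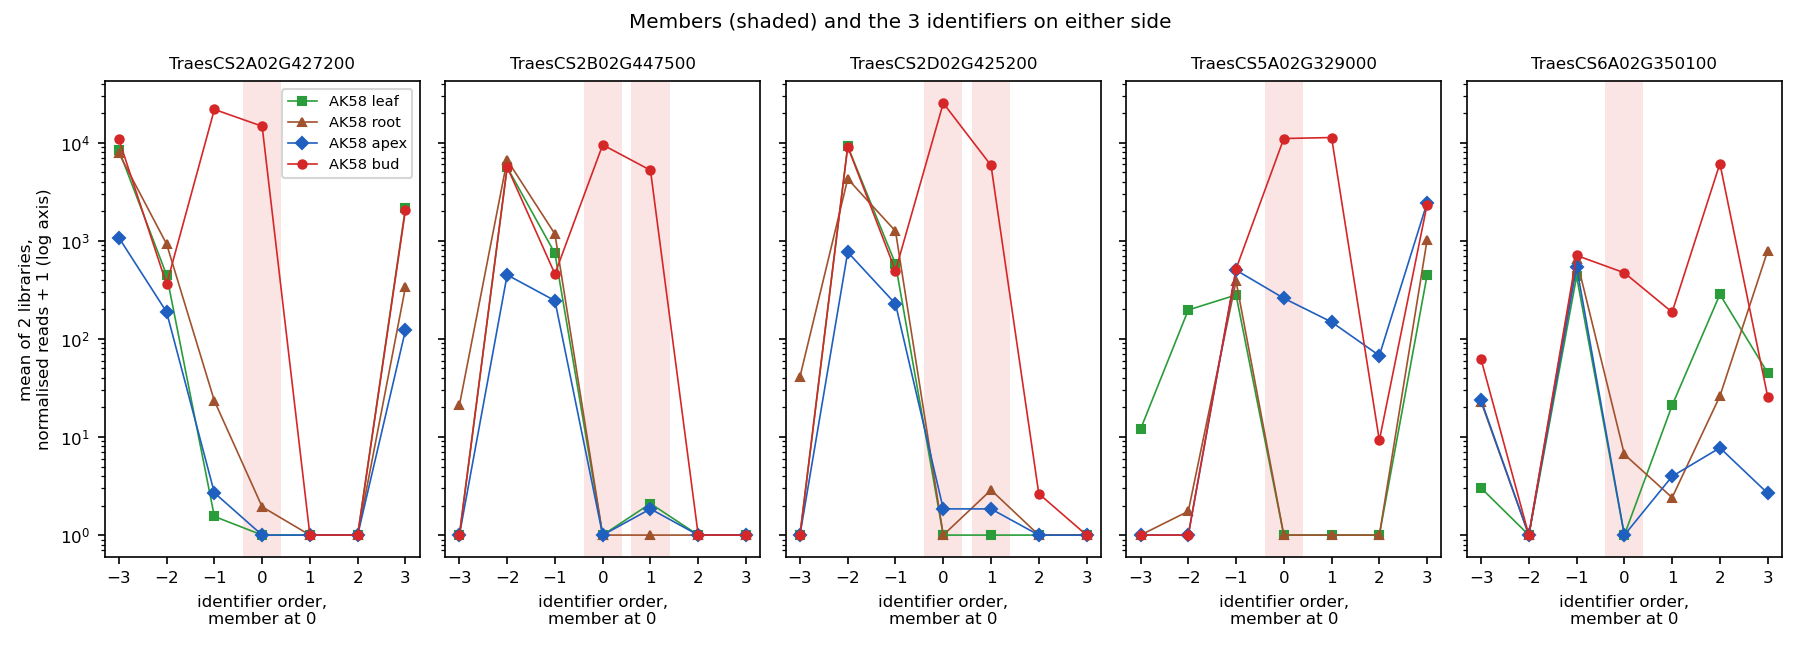
Mean of 2 libraries, as normalised reads + 1 on a log axis, for 5 members and the 3 identifiers on either side in identifier order, with members shaded. The bud line rises above the other tissues at the shaded positions and at the bud-high neighbours TraesCS2A02G427100, TraesCS5A02G329100 and TraesCS6A02G350300. It also does so at neighbours that are not bud-high, such as TraesCS6A02G350200.

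Other known genes of the flowering response were compared between AK58 bud and apex, from a list of 19 published identifiers of VRN1, FT1, PPD1, FUL2, FUL3, SVP1 and VRT2, of which VRN1-5D is a member. Of the 18 others, 10 were tested, 1 was higher and 3 were lower in the bud (limma, adjusted over 69525 identifiers), where 9.7% of all tested identifiers were called higher and 8.12% lower (7.98% and 4.43% with edgeR). The gene called higher was VRN1-5B, TraesCS5B02G396600, at 146 and 118 normalised reads in the buds and 0.835 and 1.70 in the apices, with 0 reads in leaf and root and listed at 0 in ZM7698. It passed the filter through the bud alone, the group where it is high, so its call is no support and no p-value is given. It met every value condition and was left out by its chromosome. For VRT2-7D, SVP1-6B and PPD1-2D, which were tested but not called, both bud values lay below both apex values. VRT2-7D stood at 1376 and 1416 normalised reads in the buds and at 3525 and 4736 in the apices. For PPD1-2A both bud values lay above both apex values, and for SVP1-6D they overlapped. SVP1-6A, VRT2-7A and VRT2-7B were called lower in the bud. They encode MADS-box transcription factors related to the floral repressor SVP of Arabidopsis. These 3 calls were lost without apex replicate 2 and without either bud library, VRT2-7B was also lost without apex replicate 1 and without either leaf library (limma adjusted p = 0.102, 0.0671 and 0.0675), and VRN1-5B left the tested set without either bud library. FT1, the mobile flowering signal, had a highest AK58 value of 1.64 normalised reads, and the 6 copies of FUL2 and FUL3 reached at most 15.1.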

How the data were processed

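The members, lists and tests were chosen with earlier results of these data known. Per the submitters' processing notes, Trimmomatic, HISAT2 2.0.5 and StringTie 1.3.3b were used; the genome build and the program that counted the AK58 reads are not given in the sources used here. For ZM7698 the authors deposited TPM. The deposited AK58 values are a signal, not TPM: each is a whole number of reads times 1 factor per library, and 100% of values were whole within 0.001 reads. They are called normalised reads and are not corrected for gene length. Tables hold 120744 identifiers, of which 12853 are noncoding RNA. The reference matched none of them, so no sequence or annotation is printed.

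The rule was applied to the deposited values. AK58 and ZM7698 were never fitted together. Values + 1 were taken to log2 and the 4 groups of a cultivar entered 1 limma-trend fit (version 3.58.1, R 4.3.3), two-sided, Benjamini-Hochberg over all identifiers at 10 normalised reads or 1 TPM in at least 2 libraries. The steps were tested on simulated data with the same setting for the spread in all genes and libraries. The libraries here are not equally alike, so this tested the steps and lends no support to the results. An edgeR 4.0.16 quasi-likelihood test on the recovered reads was an alternative: it called 12827 identifiers higher and 11496 lower in leaf against apex, 13082 and 7284 in root against apex, and 5550 and 3082 in bud against apex. Folds over 0 reads use a floor of 3 reads per library, which covers counting error only, and only if reads are independent counts. Most low read numbers were even in the leaf, root and apex libraries, so the floor may be too low and these folds too large. This was not tested. The rule for named genes took the members with the highest bud level, the highest level in other AK58 tissues, the highest M6 level, the largest called changes, the least alike bud replicates, the nearest values to a threshold and the listed regulators; the other members are named for completeness.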

Additional observations from a re-analysis of the deposited data

How the results depend on the processing

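The choice of members depended most on the WT limit: 8 identifiers met the rule with 0 TPM required, 31 with 0.5 TPM and 40 with 1 TPM, against 18. With other bud minimums, ratios or TMM-scaled reads the count lay between 15 and 25. Under TMM scaling 19 identifiers met the rule, with all 18 members among them. Without 1 library 18 to 26 identifiers met it, and without both root libraries 25 did, an alternative chosen after seeing the data. Leaving out a library cannot reduce the lower bud value or raise the highest leaf, root, apex or WT value. No member could therefore be lost in this way, and these counts tell only how many identifiers the looser rule let in. With a limit of 0.1 TPM in place of 1 TPM, 3 members were reached in M6. TMM scaling, also chosen later for levels, multiplied the bud values by 1.036 and 1.045, so all 18 rose by a similar share. The mean bud level of 16 of the 18 stayed within 1 SD. TraesCS2B02G447600 moved to 5443 and TraesCS2D02G425300 to 6103 normalised reads. Their bud replicates were the closest of the 18, with SDs of 164 and 109, so passing 1 SD reflects that closeness.

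In leaf against apex the counts of the 18 were the same under every planned setting except 1, with 0 to 1 higher and 3 lower when 1 library was left out. In root against apex, leaving out 1 library gave 0 to 2 higher and 2 to 5 lower. For the listed regulators it gave 0 to 1 higher and 0 to 5 lower, and 5 were lower with the contrasted groups alone and 5 without both root libraries. With the contrasted groups alone, 4 members were called lower in root against apex, and TraesCS1A02G278700 was no longer called. Without either bud library 8 of the 18 members were tested. Median centring moved the median change of all identifiers in leaf against apex from -0.14 to 0.35 (log2), quantile normalization moved it to 0.06 and, in root against apex, from -0.0077 to -0.19, and edgeR moved the latter to 0.13; no call of a member was lost. The replicate block, on numbers that only name the samples (correlations of deviations from -0.12 to 0.43 in AK58 and from -0.31 to 0.16 in ZM7698), left 1 higher and 3 lower in leaf, 0 and 5 in root and 1 and 3 of the listed regulators, and changed no call of a member. Nothing is read from the member counts in leaf and root against apex, however stable, since these values took part in the choice. The AK58 depth limits statements to reads, and the unknown ZM7698 depth sets no floor for a value listed at 0.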
